A study of Mus musculus with 9 samples.

Results

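The 10 genes described here encode proteins of elastic fibers and of the microfibrils that carry them: Fbn1, Fbn2, Mfap2, Eln, Fbln5, Fbln2, Ltbp1, Ltbp2, Emilin1 and Emilin2. The set is defined by gene name and not by a threshold on measured values, although it was chosen with earlier results of these data known. Each gene was matched by its Entrez gene ID to the expression files, which list 19369 genes in all. All 10 passed the filter on low counts that left 14771 genes for testing. The samples came from wild-type C57BL/6 mouse embryos, with no transgene or treatment, and RNA-Seq was performed on 3 samples for each of 3 stages. At E10.5 (E, embryonic day) the tissue was periocular neural crest (pNC), the mesenchyme around the eye that later enters the cornea. At E14.5 and E16.5 it was the dissected cornea. As described in the methods, each sample pooled tissue from several eyes, and the E10.5 tissue was treated with dispase so that ectoderm, lens vesicle and optic cup could be discarded. In comparisons with E10.5, stage, tissue and dissection therefore cannot be told apart. E14.5 and E16.5 are both cornea, but their dissection is described differently, so stage and dissection cannot be told apart between them.

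Fibrillins assemble end to end into microfibrils, thin beaded threads found in most connective tissues. In elastic tissues, tropoelastin is laid onto these threads with the help of fibulins and is then cross-linked by lysyl oxidases, and EMILINs sit where the elastin meets the microfibril. Microfibrils also occur without elastin, as in the zonule that suspends the lens, and they hold TGFβ in an inactive complex through the latent TGFβ binding proteins.

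Levels are given as FPKM, fragment counts scaled to transcript length and to library depth, so that genes can be compared with each other. Changes are log2 fold changes with their standard error (SE) from edgeR's quasi-likelihood test on the expected counts, with p-values adjusted by the Benjamini-Hochberg method over all 14771 genes. A gene was called higher or lower at an adjusted p under 0.05 together with a log2 fold change of at least 1 in size. The 3 comparisons between stages share samples with each other.

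Total expected counts ran from 8745161 to 9069023 per sample. Summed FPKM of 6 corneal stroma markers, which included 3 fibrillar collagens, ran from 370.7 to 542.9 in pNC, from 3268 to 7172 in E14.5 corneas and from 12374 to 15909 in E16.5 corneas. For 6 corneal epithelium markers the sums ran from 21.9 to 29.6, from 530.5 to 1942 and from 5029 to 7321, and for 6 markers of neural crest mesenchyme they ran from 364.0 to 414.9, from 152.5 to 206.1 and from 129.0 to 163.2. Sums of 6 vascular endothelium markers lay between 108.6 and 173.3 in pNC. They lay between 47.2 and 88.4 in E14.5 corneas and between 22.8 and 35.9 in E16.5 corneas. Most of the E16.5 sum was Kdr (21.7, 29.3 and 27.5 FPKM), which overlapped its pNC range. No other vascular marker exceeded 1.85 FPKM at E16.5. Most of the neural crest sum at E16.5 was Twist1 (124, 139 and 156 FPKM), which also overlapped its pNC range. The skeletal muscle genes Myod1, Myog and Myf5 were at 0 in every cornea. Acta1, also on that list, was between 0.30 and 0.72 FPKM in the corneas and between 0.11 and 1.03 FPKM in pNC. Median summed FPKM in pNC, E14.5 and E16.5 corneas was 12.76, 277.33 and 250.07 for 4 corneal endothelium markers. For 6 smooth muscle and pericyte markers it was 64.53, 91.84 and 40.25, and for 6 white blood cell markers 27.24, 74.13 and 25.27. For 5 red blood cell markers it was 5412.95, 645.82 and 9.53. It was 23.42, 9.25 and 9.63 for glia, 33.03, 27.96 and 9.79 for optic cup, and 1.02, 3.38 and 4.1 for lens markers. E14.5 sample S1 stood apart from the other E14.5 samples. There Kera, a keratan sulfate proteoglycan of the corneal stroma, was at 803 FPKM against 83.1 and 151, and Krt12, the keratin of corneal epithelium, was at 102 FPKM against 0.62 and 2.06. In bulk tissue, fewer cells of a type and less RNA per cell cannot be told apart, and the part that these shifts in markers play in the results on the 10 genes was not tested.

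Between E10.5 and E14.5, 5 of the 10 genes were called higher (Fbn2, Fbln5, Fbln2, Ltbp1 and Ltbp2) and none lower by edgeR's quasi-likelihood test. Across all genes tested, 13.6% were called higher and 7.97% lower in the same comparison. Without the fold minimum, 7 of the 10 passed as higher, against 28.9% of all genes, the added genes being Mfap2 and Emilin1. The count of 0 lower was also 0 at an unadjusted p under 0.05, and with DESeq2, limma and NOISeq. The median log2 fold change of the 10 genes was 0.92, and that of all genes tested was 0.01. Between E10.5 and E16.5, 4 genes were called higher (Mfap2, Fbln5, Ltbp1 and Ltbp2) and Emilin2 was called lower, against 19.4% of all genes called higher and 15.4% lower, with a median of 0.47 against 0.00. Between E14.5 and E16.5, none of the 10 was called higher and only Emilin2 was called lower by edgeR's quasi-likelihood test, against 6.26% and 5.47% of all genes. Without the fold minimum, 2 of the 10 (Mfap2 and Ltbp2) passed as higher from E14.5 to E16.5 and 2 (Fbln2 and Emilin2) as lower, where 17.5% of all genes passed in each direction. The count called higher in this interval was 2 at an unadjusted p under 0.05, 1 with DESeq2 and 0 with limma or NOISeq. Without E14.5 sample S1, the calls were 5 higher and 0 lower at E14.5, and 1 higher (Ltbp2) and 2 lower (Emilin2 and Fbln2) between the corneal stages.

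**Figure D1:**
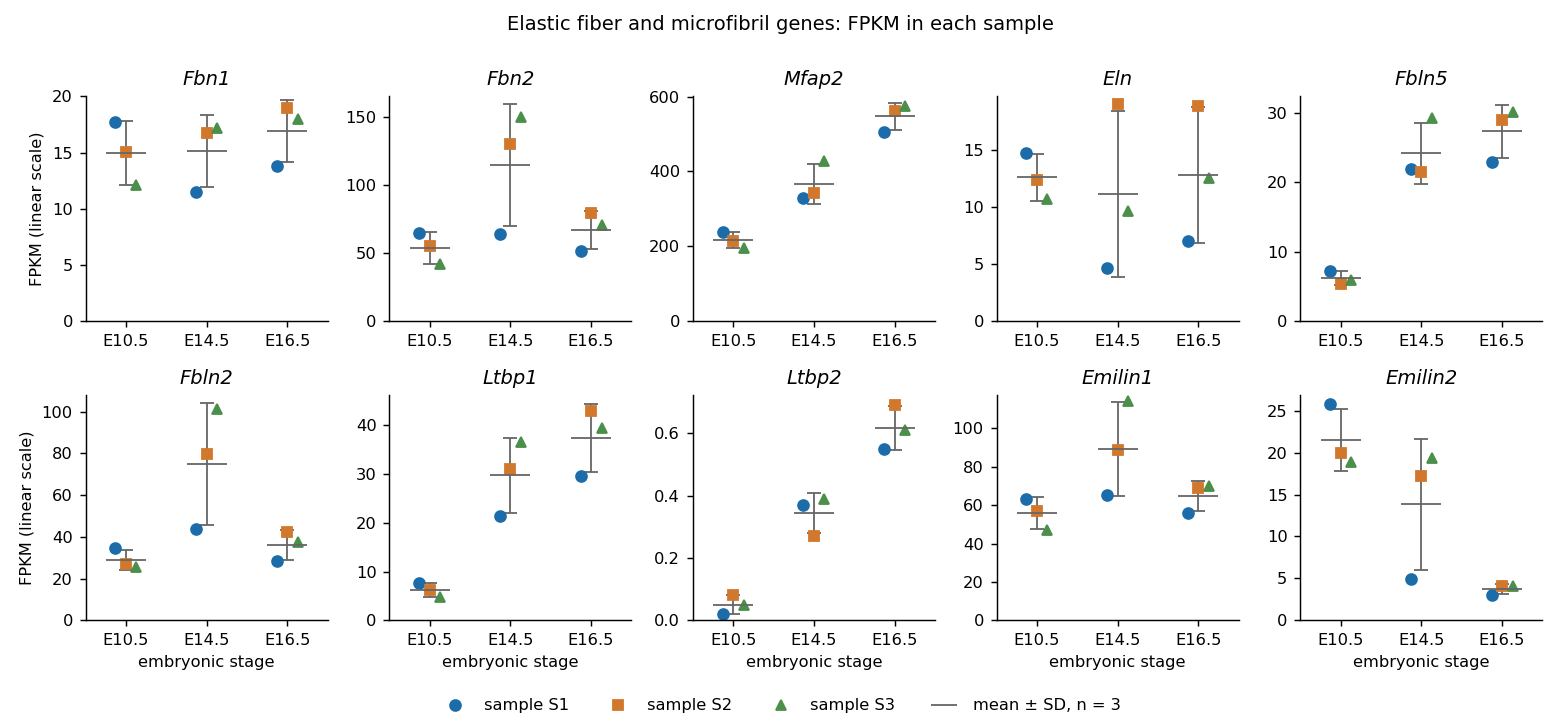
FPKM of each of the 10 genes (linear axis from 0) in the 3 samples of each stage, with the stage mean and SD in grey. Mfap2, Fbln5, Ltbp1 and Ltbp2 sit above all E10.5 samples at both later stages, Emilin2 is between 2.99 and 4.12 FPKM at E16.5, and sample S1 is the lowest E14.5 sample for 8 of the 10 genes.

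**Figure D2:**
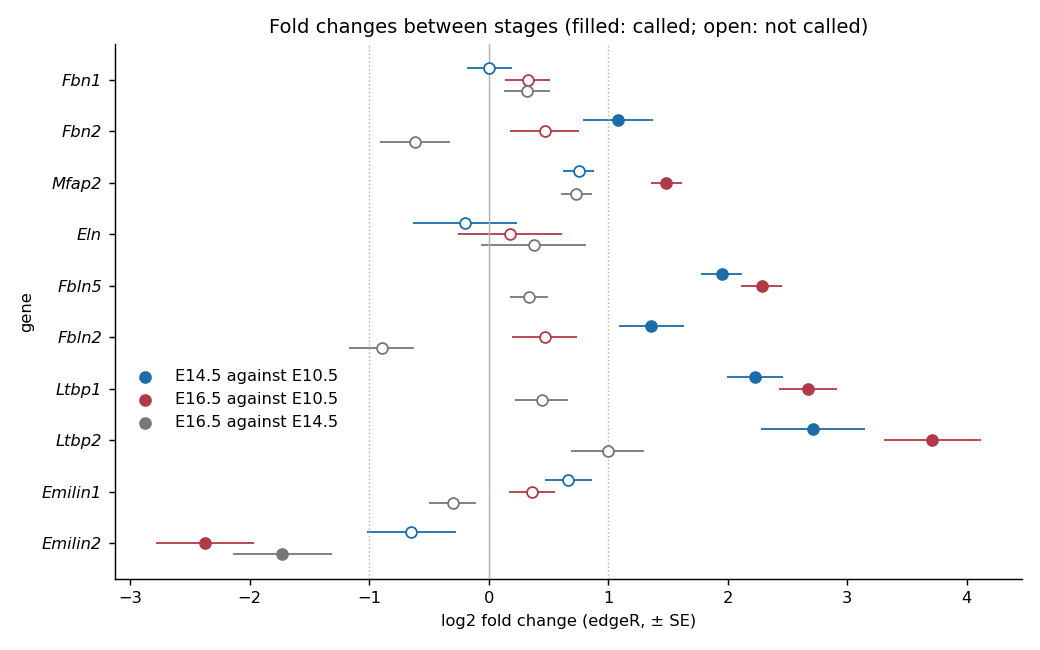
log2 fold change with its SE from edgeR for the 10 genes in the 3 pairs of stages. Filled points were called and open points were not, and the dotted lines mark the fold minimum of 1 on the log2 scale.

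The fibrillins are the backbone of the microfibril, and Mfap2 (MAGP-1) is a small glycoprotein that binds them. Mfap2 (Entrez 17150, chromosome 4, 141010424 to 141015976, plus strand, GRCm38) had the highest FPKM of the 10 genes at every stage. Its FPKM was 237.7, 215.3 and 195.4 in E10.5 samples S1, S2 and S3, then 329.6, 342.6 and 428.7 at E14.5, and 505.7, 561.0 and 573.8 at E16.5. No sample of one stage overlapped another stage, and the 3 stages followed each other in order. From E10.5 to E16.5 Mfap2 rose by 1.49 ± 0.13 (log2, SE), with an adjusted p of 2.46e-06 in edgeR's quasi-likelihood test. The steps from pNC to E14.5 (0.75, adjusted p = 0.000568) and from E14.5 to E16.5 (0.74, adjusted p = 0.00197) each passed edgeR's test on p and stayed under the fold minimum.

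Fbn2 encodes the fibrillin that is best known from embryonic tissue. Its FPKM (Entrez 14119) was 64.8, 55.2 and 41.8 in pNC, 64.5, 130.7 and 150.3 at E14.5, and 51.7, 79.5 and 70.5 at E16.5. The E14.5 samples S2 and S3 were above every other sample, whereas E14.5 S1 lay within the E10.5 range. Fbn2 was called higher at E14.5 than in pNC (1.09 ± 0.29, edgeR adjusted p = 0.00889), and this call was lost without E10.5 sample S3 (0.92) or without E14.5 sample S3 (0.82), both under the fold minimum. The later value of -0.62 between E14.5 and E16.5 did not pass (edgeR adjusted p = 0.124), nor did the difference of 0.47 between E16.5 and E10.5 (edgeR adjusted p = 0.172).

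Fbn1, the fibrillin whose mutation causes Marfan syndrome, was between 11.5 and 19.0 FPKM in all 9 samples. Its values (Entrez 14118, chromosome 2, 125300594 to 125506485, minus strand) were 17.8, 15.0 and 12.1 FPKM in pNC, 11.5, 16.7 and 17.2 at E14.5, and 13.8, 19.0 and 18.0 at E16.5, with overlap between every pair of stages. Against pNC, Fbn1 had log2 fold changes of 0.01 for E14.5 and 0.33 for E16.5, and neither passed (edgeR adjusted p = 0.984 and 0.145). Fbn2 made up 78.2% ± 0.593 (SD, n = 3) of the summed fibrillin FPKM in pNC, 87.7% ± 2.55 in E14.5 corneas and 79.8% ± 0.896 in E16.5 corneas. All 3 E14.5 samples, S1 included at 84.9%, were above every sample of the other stages. The log2 ratio of Fbn1 to Fbn2 was lower at E14.5 than in pNC by 1.02 and did not overlap, with an exact permutation p of 0.1 (two-sided, adjusted p = 0.12 over 12 ratio comparisons), the smallest p that 3 samples against 3 can give.

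Tropoelastin, encoded by Eln, is the elastic core of the fiber. Eln (Entrez 13717, chromosome 5, 134702595 to 134747368, minus strand) was at 14.8, 12.3 and 10.7 FPKM in pNC, at 4.67, 19.0 and 9.68 at E14.5, and at 7.04, 18.9 and 12.6 at E16.5. It was variable within both corneal stages, the highest sample of E14.5 being S2 and the lowest S1, and the 3 stages overlapped. None of its log2 fold changes passed edgeR's quasi-likelihood test, with -0.20 (adjusted p = 0.720) between pNC and E14.5 and 0.18 (adjusted p = 0.735) between pNC and E16.5. Its direction turned in all 3 comparisons when 1 sample was left out, and with limma between pNC and E16.5 only.

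Fbln5 encodes fibulin-5, which binds tropoelastin and is needed to form elastic fibers. Fbln5 (Entrez 23876, chromosome 12, 101746565 to 101819119, minus strand) was at 7.29, 5.37 and 5.96 FPKM in pNC, at 21.9, 21.4 and 29.2 at E14.5, and at 22.9, 28.9 and 30.1 at E16.5. Every corneal sample was above every pNC sample, and the E14.5 and E16.5 samples overlapped. It rose by 1.95 ± 0.17 to E14.5 (edgeR adjusted p = 7.07e-06) and by 2.29 ± 0.17 to E16.5 (edgeR adjusted p = 9.93e-07). Between the corneal stages the difference of 0.34 did not pass.

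Fbln2 encodes fibulin-2, which binds fibrillin and is also found in basement membranes. Fbln2 (Entrez 14115, chromosome 6, 91212460 to 91272540, plus strand) was at 34.5, 27.0 and 25.4 FPKM in pNC, at 43.6, 79.8 and 101.4 at E14.5, and at 28.3, 42.4 and 37.7 at E16.5. All E14.5 samples lay above all samples of both other stages, while E10.5 and E16.5 overlapped. It was called higher at E14.5 (1.36 ± 0.28, edgeR adjusted p = 0.00168). From E14.5 to E16.5 its log2 fold change was -0.89 ± 0.27, which passed on p (edgeR adjusted p = 0.0266) and not on the fold minimum. It was called lower without E14.5 sample S1 (-1.17) or without E16.5 sample S2 (-1.03).

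The 2 fibulins were also compared within each sample. The FPKM ratio of Fbln5 to Fbln2 was between 0.199 and 0.234 in pNC, between 0.268 and 0.501 at E14.5 and between 0.682 and 0.809 at E16.5, with no overlap between stages. On the log2 scale the ratio was higher by 1.83 at E16.5 than in pNC and by 1.17 than at E14.5 (exact permutation p = 0.1 each, two-sided, the smallest possible, adjusted p = 0.12).

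**Figure D3:**
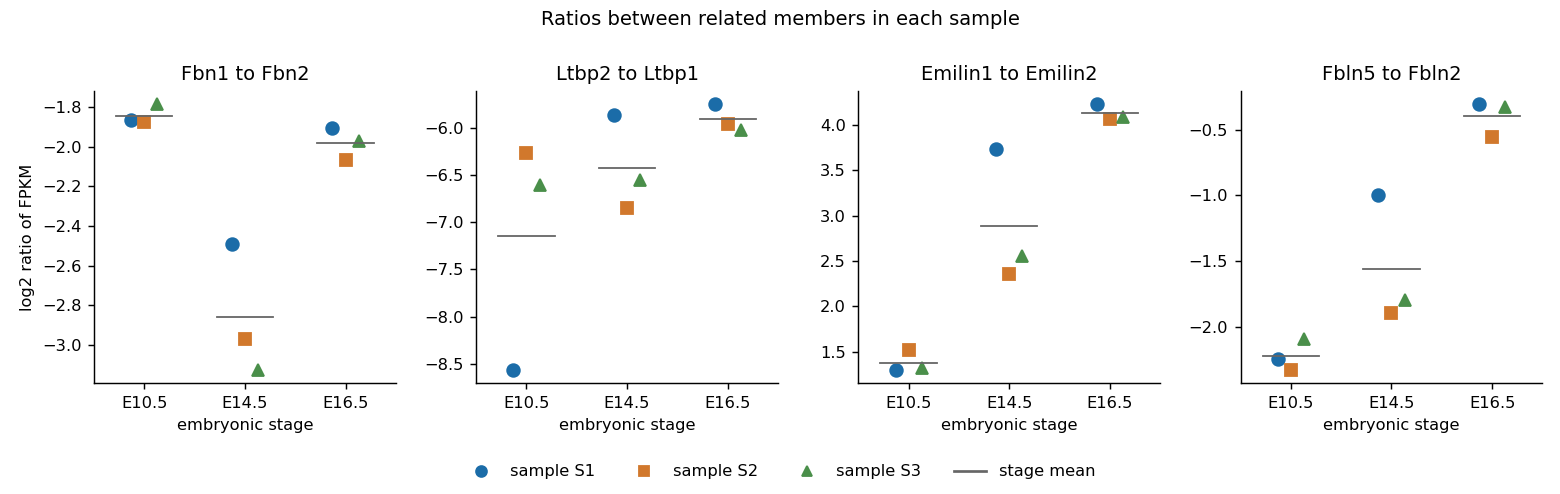
log2 ratio of FPKM for 4 pairs of related genes in each sample, with the stage mean as a grey line; the axes differ between panels and do not start at 0. Fbn1 to Fbn2 is lowest in the 3 E14.5 samples, and Emilin1 to Emilin2 and Fbln5 to Fbln2 step up at each stage, with E14.5 sample S1 nearest to E16.5 in all 3 of these panels.

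Latent TGFβ binding proteins attach to the microfibril. The product of Ltbp1 is bound to inactive TGFβ and tethers it to the matrix, whereas that of Ltbp2 lacks this binding and is known from the ciliary zonule. Ltbp1 (Entrez 268977, chromosome 17, 75005480 to 75392512, plus strand) was at 7.59, 6.14 and 4.87 FPKM in pNC, at 21.4, 31.1 and 36.6 at E14.5, and at 29.5, 42.9 and 39.4 at E16.5. Both corneal stages were clear of pNC and overlapped each other. It rose by 2.23 ± 0.24 to E14.5 (edgeR adjusted p = 2.51e-05) and by 2.67 ± 0.24 to E16.5 (edgeR adjusted p = 3.02e-06).

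Ltbp2 (Entrez 16997, chromosome 12, 84783212 to 84876558, minus strand) was the lowest of the 10 genes at every stage. It was at 0.02, 0.08 and 0.05 FPKM in pNC, at 0.37, 0.27 and 0.39 at E14.5, and at 0.55, 0.69 and 0.61 at E16.5. These values rest on 9, 61 and 109 reads summed over the 3 samples of a stage. No stage overlapped another, and the read total per library total was 6.87 times higher at E14.5 than in pNC (95% interval 3.39 to 15.7) and 12.3 times higher at E16.5 (6.24 to 27.6), intervals that cover counting error only. edgeR called Ltbp2 higher at both stages (2.72 and 3.71, adjusted p = 0.000398 and 1.31e-05). Neither call was made by limma on log2(FPKM + 1), where the differences were 0.35 and 0.62, or by NOISeq, where they were 2.78 and 3.62. Between E14.5 and E16.5 its log2 fold change of 0.997 was just under the fold minimum (edgeR adjusted p = 0.0277), and it was called without E14.5 sample S1 (1.05) or S3 (1.11). An antisense gene to Ltbp2, D030025P21Rik, did not exceed 0.09 FPKM. The strand setting of the counting is not given in the sources used here, so reads of the pair cannot be told apart.

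The files give Ltbp1 2 transcripts and a length that is averaged over them by their estimated share. This length was examined after the Ltbp1 values had been seen. It was 7910 bases in all 3 E10.5 samples, 7743, 7735 and 7888 bases in E14.5 samples S1, S2 and S3, and 7550, 7643 and 7493 bases at E16.5. The weighted length was therefore shorter at each later stage, with no overlap between stages, with mean differences from pNC of -122 bases for the E14.5 corneas and -348 bases for the E16.5 corneas. Each pair of stages reached an exact permutation p of 0.1 (two-sided, the smallest possible, adjusted p = 0.18 over 9 length comparisons). Among the other members with 2 transcripts, stage means of the weighted length differed by at most 1.45 bases for Fbln2 and 0.117 bases for Mfap2. The Mfap2 lengths of E14.5 also did not overlap those of either other stage, with the same exact permutation p of 0.1 (two-sided, adjusted p = 0.18).

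**Figure D4:**
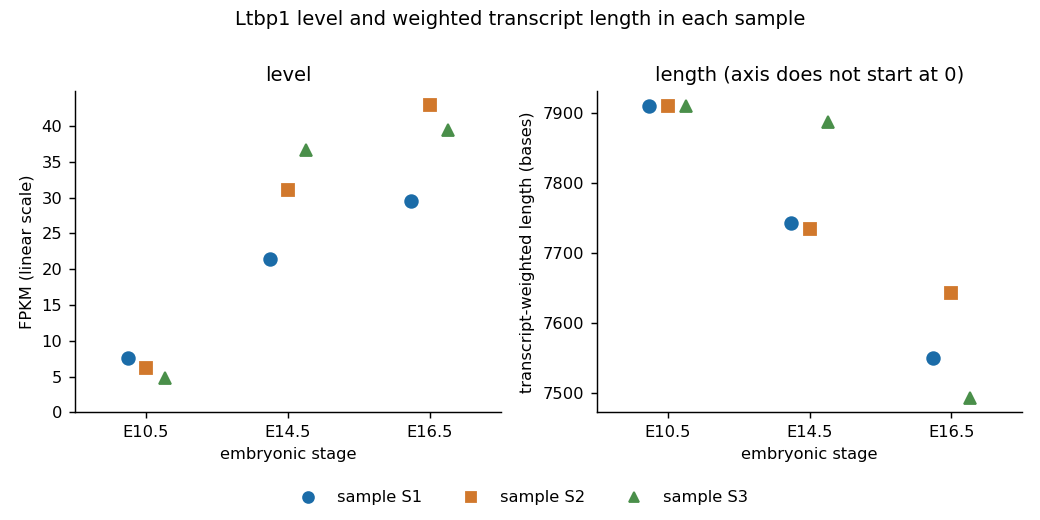
FPKM of Ltbp1 (left, linear axis from 0) and its transcript-weighted length in bases (right, axis not from 0) in each sample. The level is higher in all 6 corneal samples than in pNC, and the length is 7910 bases in every E10.5 sample and at most 7643 bases in the E16.5 samples.

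In GENCODE for GRCm38, the longer Ltbp1 transcript (NM_019919, 6671 bases spliced) starts at position 75005568 of chromosome 17 and the shorter one (NM_206958, 5140 bases) at 75178810, 173242 bases farther along the plus strand. These lengths are not those of the authors' annotation, so the share of the shorter transcript was not computed. The 250 bases before the RefSeq start nearest to each (GRCm38.p6, plus strand, 5′ to 3′) are shown because the shift in length is between transcripts that begin at these separate starts. Capitals mark matches on either strand to 5 motifs searched: the cyclic AMP response element (TGACGTCA), an AP-1 site (TGACTCA), the TATA box (TATAAA), the GC box (GGGCGG) and the Smad-binding element (CAGACA).
Ltbp1 long transcript, chr17:75005279-75005528: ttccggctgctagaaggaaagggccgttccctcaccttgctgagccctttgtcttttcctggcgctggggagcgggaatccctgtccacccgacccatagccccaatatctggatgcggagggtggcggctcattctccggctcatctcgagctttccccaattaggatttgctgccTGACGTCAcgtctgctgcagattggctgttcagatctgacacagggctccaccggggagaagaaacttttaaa
Ltbp1 short transcript, chr17:75178531-75178780: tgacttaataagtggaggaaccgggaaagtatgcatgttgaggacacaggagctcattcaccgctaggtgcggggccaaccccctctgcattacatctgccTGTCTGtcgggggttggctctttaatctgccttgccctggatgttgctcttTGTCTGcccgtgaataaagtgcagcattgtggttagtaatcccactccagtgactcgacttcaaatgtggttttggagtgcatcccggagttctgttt
The window of the long transcript held the cyclic AMP response element 73 to 66 bases before the start, and no other motif. This motif was in 1 of the 12 windows of the 8 members that RefSeq's table covers and in 1.55% of all 32851 windows. The window of the short transcript held the Smad-binding element at 2 places on the minus strand (as TGTCTG) and no other motif. That element was in 4 of the 12 windows, those of Emilin1, Fbln5, Ltbp1 and Mfap2, and in 17.1% of all windows. The GC box was in 6 of the 12 windows against 32.7% of all windows, the TATA box in 0 of 12 against 12.4%, and the AP-1 site in 0 of 12 against 4.46%. These are matches of letters, and binding was not measured.

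EMILINs are secreted glycoproteins found between elastin and the microfibril. Emilin2 (Entrez 246707, chromosome 17, 71252172 to 71311556, minus strand) was the one member that edgeR called lower with all 9 samples and TMM scaling, in both comparisons with E16.5. Its FPKM was 25.8, 19.9 and 18.9 in pNC, 4.89, 17.2 and 19.4 at E14.5, and 2.99, 4.11 and 4.12 at E16.5. E14.5 samples S2 and S3 were near the pNC values, E14.5 S1 was near the E16.5 values, and every E16.5 sample was below every other sample. Emilin2 fell by 2.37 ± 0.41 from E10.5 to E16.5 (log2, edgeR adjusted p = 0.000373) and by 1.73 ± 0.41 from E14.5 to E16.5 (edgeR adjusted p = 0.00883). Its value of -0.65 between E10.5 and E14.5 did not pass (edgeR adjusted p = 0.165), and it was -0.24 without E14.5 sample S1. The fall to E16.5 was as large without that sample, at -2.37 from E10.5 and -2.13 from E14.5.

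Emilin1, known for limiting TGFβ activation as well as for its place in elastic fibers, was called in none of the 3 comparisons. Emilin1 (Entrez 100952, chromosome 5, 30913387 to 30921279, plus strand) was at 63.4, 57.1 and 47.2 FPKM in pNC, at 65.3, 88.5 and 114.1 at E14.5, and at 56.0, 68.7 and 69.9 at E16.5. The E14.5 samples were above all E10.5 samples, by a log2 fold change of 0.67 that passed on p (edgeR adjusted p = 0.0132) and not on the fold minimum. Emilin2 made up 27.8% ± 1.68 (SD, n = 3) of the summed FPKM of the pair in pNC, 12.6% ± 4.95 in E14.5 corneas and 5.43% ± 0.313 in E16.5 corneas. The log2 ratio of Emilin1 to Emilin2 differed from pNC by 1.51 in E14.5 corneas and by 2.75 in E16.5 corneas, with no overlap (exact permutation p = 0.1 each, two-sided, the smallest possible, adjusted p = 0.12). Of 6 vascular endothelium markers, 5 were called lower at E16.5 against each earlier stage. The count was also 5 of 6 at E14.5 against E10.5, where Emilin2 was not called. Cdh5, an endothelial cadherin, was at 8.23 FPKM in E14.5 S1 against 16.7 and 15.8 in S2 and S3. Of 6 neural crest mesenchyme markers, 5 were called lower from E10.5 to E14.5, 5 from E10.5 to E16.5 and 3 from E14.5 to E16.5. Over all genes tested, 7.97%, 15.4% and 5.47% were called lower in these 3 comparisons. The part of either list of markers in the fall of Emilin2 was not tested.

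The order of the 10 genes by mean FPKM changed between stages. In pNC it was Mfap2 (216), Emilin1 (55.9), Fbn2 (53.9), Fbln2 (29.0), Emilin2 (21.5), Fbn1 (15.0), Eln (12.6), Fbln5 (6.21), Ltbp1 (6.20) and Ltbp2 (0.05). Neighbours whose samples overlapped were Emilin1 and Fbn2, Fbln2 and Emilin2, Fbn1 and Eln, and Fbln5 and Ltbp1. The E14.5 order was Mfap2 (367), Fbn2 (115), Emilin1 (89.3), Fbln2 (74.9), Ltbp1 (29.7), Fbln5 (24.2), Fbn1 (15.1), Emilin2 (13.8), Eln (11.1) and Ltbp2 (0.343), with overlap from Fbn2 to Emilin1 and on to Fbln2, between Ltbp1 and Fbln5, and from Fbn1 to Emilin2 and on to Eln. At E16.5 it was Mfap2 (547), Fbn2 (67.2), Emilin1 (64.9), Ltbp1 (37.3), Fbln2 (36.1), Fbln5 (27.3), Fbn1 (16.9), Eln (12.8), Emilin2 (3.74) and Ltbp2 (0.617). Here Fbn2 and Emilin1, Ltbp1 with Fbln2, Fbln2 with Fbln5, and Fbn1 with Eln overlapped. Ltbp1 moved from place 9 to place 4, and Emilin2 from place 5 to place 9. The summed FPKM of the 10 genes was 416 ± 55.6 (SD, n = 3) in pNC, 741 ± 170 in E14.5 corneas and 814 ± 82.6 in E16.5 corneas, of which Mfap2 took 52.1%, 50.4% and 67.4%.

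Within a stage the genes tended to move together from sample to sample. E16.5 sample S1 was the lowest of its stage for 10 of the 10 genes, where 33.1% of all genes with distinct values were lowest in that sample. In the same sample the summed stroma markers were the lowest of the stage (12374 FPKM) and the summed epithelium markers the highest (7321 FPKM against 5029 and 5083). Within the stroma list, Kera (1244 FPKM) and Lum (1594 FPKM) were instead highest in that sample, and the other stroma markers were lowest in it. At E14.5, sample S1 was the lowest for 8 of the 10 genes (37.4% of all genes). The sums of stroma (7172 FPKM) and epithelium markers (1942 FPKM) were highest in S1 for that stage. Within the stroma list, Kera, Lum, Dcn and Col1a1 were highest in S1. Col1a2 was highest in S3 (1394 FPKM in S1 against 795 and 1447), and Col3a1 was lowest in S1 (511 FPKM against 528 and 738). S1 held 0.267 times the mean of S2 and S3 for Emilin2, 0.459 times for Fbn2 and 0.481 times for Fbln2, but 0.863 times for Fbln5 and 0.855 times for Mfap2. At E10.5, sample S3 was the lowest for 8 of the 10 genes (39.6% of all genes) and S1 the highest for 9 (32.4%). The stroma marker sum was also lowest in S3 (370.7 FPKM) and highest in S1 (542.9 FPKM), although Kera (0.69 FPKM) and Dcn (4.74 FPKM) were lowest in S1. What these shifts have to do with the levels of the 10 genes was not tested.

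The genes whose log2(FPKM + 1) followed each member most closely over the 9 samples were looked up among 10941 genes with a mean of at least 5 FPKM in some stage. These correlations are descriptions over 3 stages of shared libraries. Closest to Mfap2 were Col3a1 (r = 0.995), a fibrillar collagen that itself rose from 227 to 593 and 1458 FPKM, and Eif2ak3 (r = 0.994). Fbln5 was followed by Igdcc4 (r = 0.996) and Nfix (r = 0.995), and Ltbp1 by Itga11, a collagen-binding integrin subunit (r = 0.996), and Parva (r = 0.995). The actin regulator Fmnl3 stood first for Fbn2 (r = 0.991), Fbln2 (r = 0.985) and Emilin1 (r = 0.991), followed by Cdk14 for Fbn2 (r = 0.990), Atp2b4 for Fbln2 (r = 0.978) and Fbn2 itself for Emilin1 (r = 0.981). For Emilin2 they were Mcm3ap (r = 0.996) and Tmem119 (r = 0.995). The closest genes reached less for Fbn1 (Iglon5, r = 0.949, and Prickle1, r = 0.915) and for Eln (Hsd17b11, r = 0.874, and Pofut1, r = 0.855).

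Genes that assemble, cross-link, cut or bind these fibers were followed in 9 lists of 46 genes, of which 45 were in the files, 43 passed the filter on low counts, and Mmp12 was not analysed here. Of the 43, edgeR called 16 higher and 5 lower at E14.5 against pNC, 19 higher and 7 lower at E16.5 against pNC, and 5 higher and 6 lower at E16.5 against E14.5, to be read against the shares of all genes given above. The 5 higher in the last interval became 2 with library totals, with limma at a pseudocount of 1 or with NOISeq, and 13 without the fold minimum. Their median log2 fold changes were 0.80, 0.73 and 0.09. In the 9 fibrillar collagens, the main fibers of the corneal stroma, 8 were called higher and 1 lower from E10.5 to E16.5, with a median of 2.95. From E14.5 to E16.5, 7 were called higher, with a median of 1.73. Of all genes, 19.4% were called higher and 15.4% lower from E10.5 to E16.5, and 6.26% higher from E14.5 to E16.5. The 10 elastic fiber and microfibril genes had medians of 0.47 and 0.33 in these intervals, and the difference between the lists was not tested.

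Lysyl oxidases cross-link tropoelastin and collagen, and 2 of the 5 were called higher and 1 lower at E16.5 against pNC. Over all genes tested, 19.4% were called higher and 15.4% lower in that comparison. Lox went from 22.5 ± 1.34 FPKM (SD, n = 3) to 67.8 ± 4.98 in E14.5 corneas and 112 ± 16.6 in E16.5 corneas, by 2.46 on the log2 scale in all (edgeR adjusted p = 1.09e-07). Loxl1, the enzyme known to work with fibulin-5, rose by 2.51 (edgeR adjusted p = 4.27e-06), from 8.15 ± 2.79 to 41.9 ± 3.42 FPKM. Loxl2 was at 39.9 ± 4.01 and 30.6 ± 5.33 FPKM and did not pass. The gene called lower was Loxl4 (-1.78, edgeR adjusted p = 0.00946), which was low throughout, at 0.40 ± 0.036 FPKM in pNC and 0.10 ± 0.076 at E16.5.

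Among the 5 other fibulins, 3 were called higher at E16.5 than in pNC, where 19.4% of all genes were called higher. Efemp1 (fibulin-3) rose from 8.51 ± 0.727 to 124 ± 7.35 FPKM, by 4.02 (edgeR adjusted p = 1.20e-07). Efemp2 (fibulin-4), which brings lysyl oxidase to tropoelastin, rose by 1.12 (edgeR adjusted p = 6.49e-06), from 43.4 ± 2.89 to 85.3 ± 9.33 FPKM. Both other latent TGFβ binding proteins were called higher at E16.5. Ltbp3 went from 6.37 ± 1.45 to 34.1 ± 5.35 and 44.5 ± 1.44 FPKM over the 3 stages, whereas Ltbp4 was at 5.07 ± 1.23 FPKM in pNC and 41.4 ± 7.05 in E16.5 corneas. At E14.5 it was at 14.1 FPKM in S1 and at 3.34 and 6.02 in S2 and S3. edgeR called Ltbp4 higher from E14.5 to E16.5 (2.55, edgeR adjusted p = 0.00128) and over the whole interval (3.14, edgeR adjusted p = 4.95e-05).

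Other microfibril-associated proteins had 8 members tested, of which 4 were called higher and 1 lower at E16.5 against pNC (19.4% and 15.4% of all genes). Mfap4, an elastin-binding glycoprotein, had the highest level at 144.9 ± 7.56 and 217 ± 29.2 FPKM and passed on p (0.73, edgeR adjusted p = 0.000245) and not on the fold minimum. Adamts10, a fibrillin-binding protease relative, was at 32.4 ± 0.649 and 44.5 ± 1.24 FPKM and stayed under the fold minimum likewise. Adamtsl5, which binds fibrillins, was at 0.57, 0.11 and 0.30 FPKM in pNC, at 14.6, 3.43 and 3.23 at E14.5 and at 32.6, 21.1 and 27.3 at E16.5, and was called higher in all 3 comparisons, with E14.5 S1 the highest of its stage. Adamts6, in contrast, was called lower at E16.5 (-1.38, edgeR adjusted p = 0.000198).

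In the rest of the EMILIN and multimerin family, Mmrn1 and Mmrn2, both known from vascular endothelium, were called lower at E16.5 against both earlier stages. Unlike Emilin2, Mmrn1 was also called lower at E14.5 against pNC (-2.54, edgeR adjusted p = 9.85e-05), at 0.54, 1.43 and 1.20 FPKM. Mmrn2 passed on p in that comparison (-0.89, edgeR adjusted p = 0.0428) and not on the fold minimum. Mmrn1 was at 6.67, 6.75 and 4.85 FPKM in pNC and at 0, 0.07 and 0.10 FPKM at E16.5, and Mmrn2 was at 7.84, 7.70 and 4.38 FPKM and at 0.12, 0.37 and 0.14 FPKM. Mmrn2 was at 1.96 FPKM in E14.5 S1 against 4.36 and 4.52 in S2 and S3. Emilin3 was highest at E14.5 (13.7 ± 4.43 FPKM) and was called lower at E16.5 than at E14.5 (-1.08, edgeR adjusted p = 0.00912), while Emid1 was called higher at E16.5 than in pNC (1.65, edgeR adjusted p = 2.55e-05).

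Of the TGFβ ligands that these complexes store, Tgfb2 was at 20.8, 17.1 and 15.3 FPKM in pNC, at 8.76, 40.4 and 40.0 at E14.5 and at 8.69, 10.4 and 11.2 at E16.5. It was called lower from E14.5 to E16.5 (-1.40, edgeR adjusted p = 0.0293), and E14.5 S1 lay within the E16.5 range, as it also did for Fbn2 and Emilin1. Tgfb3 was called higher at E14.5 than in pNC (1.02, edgeR adjusted p = 0.00128). Tgfb1 was called in none of the 3 comparisons.

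The integrin subunits listed are parts of receptors for fibrillin, fibronectin or TGFβ complexes. Itgb1 (127 ± 9.27 FPKM at E14.5) and Itgb5 (62.7 ± 2.81 at E16.5) had the highest levels and were not called. Against pNC, Itgb1 passed on p at E14.5 (0.46, edgeR adjusted p = 0.001) and at E16.5 (0.56, edgeR adjusted p = 0.000164). Itgb5 passed on p at E16.5 (0.33, edgeR adjusted p = 0.0254), and all of these stayed under the fold minimum. Itgav, the subunit shared by receptors that release TGFβ, rose by 1.26 to E16.5 (edgeR adjusted p = 4.17e-07), and Itga8 fell by 3.14 (edgeR adjusted p = 2.20e-05). Itgb8 was called lower at E16.5 than in pNC (-2.17, edgeR adjusted p = 0.000284), at 0.413 ± 0.217 FPKM against 2.08 ± 0.255. Itgb6 was called higher in that comparison (2.20, edgeR adjusted p = 0.00975) and stayed low, at 0.33 ± 0.104 FPKM at E16.5. Of the elastin-degrading proteases, the cysteine protease Ctsk rose from 4.23 ± 0.430 to 223 ± 8.80 FPKM (5.87, edgeR adjusted p = 1.41e-07) and the gelatinase Mmp2 from 61.7 ± 8.96 to 159 ± 28.9 FPKM (1.52, edgeR adjusted p = 4.95e-05). Among the scaffolds that bind fibrillin, the proteoglycan Bgn rose from 30.4 ± 5.04 to 538 ± 90.1 FPKM (4.29, edgeR adjusted p = 5.20e-08) and Fn1 (fibronectin) from 84.8 ± 23.6 to 306 ± 12.4 FPKM (1.98, edgeR adjusted p = 4.96e-06), whereas the large proteoglycan Vcan fell by 2.34 (edgeR adjusted p = 5.02e-08).

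**Figure D5:**
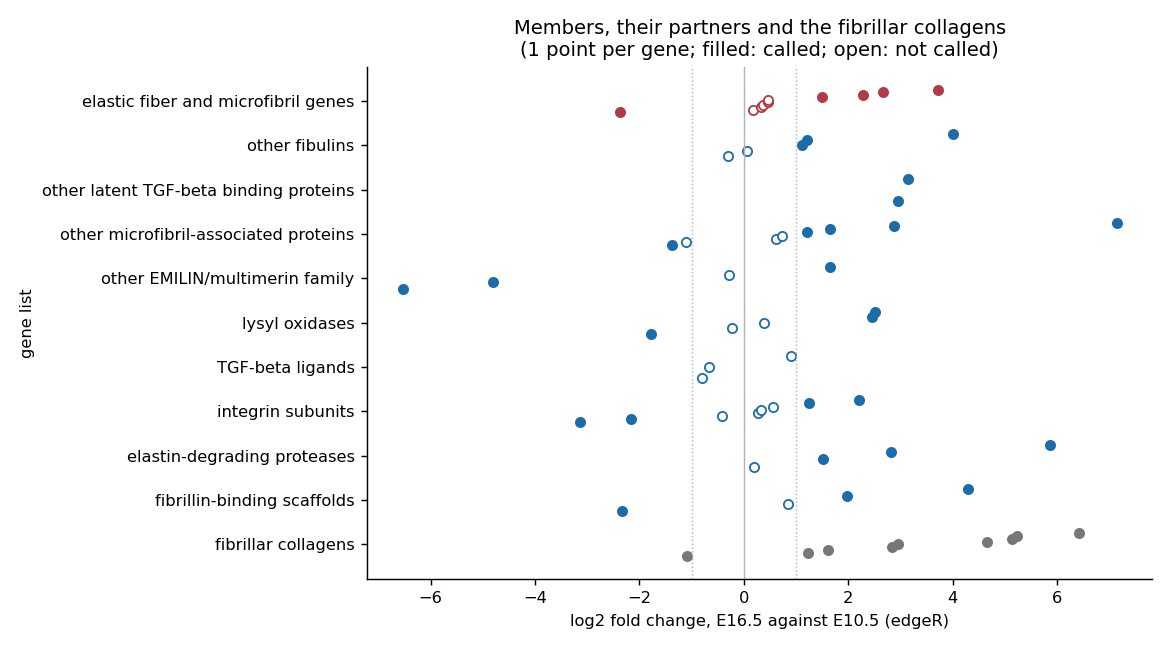
log2 fold change from E10.5 to E16.5 for each gene tested (1 point per gene), by list, with the 10 elastic fiber and microfibril genes in red, their partners in blue and the fibrillar collagens in grey. Filled points were called. The 10 genes run from -2.37 to 3.71, and 8 of the 9 collagens lie above 1.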

How the data were processed

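Reads were processed by the authors, who used Bowtie 2 for reference genes, HISAT for the GRCm38 genome and RSEM for quantification. The versions of these tools are not given in the sources used here. For each gene and sample, the deposited files hold RSEM's expected count, the FPKM that the authors computed from it, and a length in bases averaged over transcripts. Genes missing from a sample's file were set to 0. Entrez IDs were matched to RefSeq symbols (GRCm38.p6) for 19312 of 19369 genes.

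Expected counts were rounded to whole numbers and tested with edgeR 4.0.16 (TMM scaling, filterByExpr by stage, quasi-likelihood test, R 4.3.3) in 1 model of all 9 samples with stage as the only term. Calls needed a Benjamini-Hochberg adjusted p under 0.05 and a log2 fold change of at least 1 in size. The procedure was also run on simulated counts in which far fewer genes changed than were called here, evenly up and down. That run does not test the scaling of these libraries. Ratios and lengths were compared with two-sided exact permutation tests over samples (scipy 1.17.1), where 3 samples against 3 cannot give a p below 0.1. Alternatives were library totals, DESeq2 1.42.0, no filter on low counts, a replicate block, limma 3.58.1 on log2 FPKM with a pseudocount of 1 or 0.1, a NOISeq probability recomputed from FPKM (zeros set to 0.01, probability of at least 0.8), no fold minimum, and leaving out each sample. Replicates are the separate pools of a stage, whose litters are not given.

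All 10 members were named. From each partner list, called genes could be named, and the 2 with the highest stage mean FPKM were. For likeness, the 2 genes with the highest Pearson correlation were taken for each member that reached a mean of 5 FPKM. The members, lists and motifs were chosen with earlier results of these data known. Sample numbers were not used as pairs, because the study does not describe samples of different stages as paired. Deviations from the stage means correlated at -0.0341 on average over 9 same-number pairs and at 0.0179 over 18 others. These averages do not settle pairing between the corneal stages. There the same-number pairs were at 0.216, 0.0759 and 0.0947, and the others ran from -0.168 to 0.109.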

Additional observations from a re-analysis of the deposited data

How the results depend on the processing

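From E14.5 to E16.5, the count of members called higher (0) became 1 with DESeq2 and 2 without the fold minimum, and 0 to 1 when each sample was left out. The count called lower (1) became 2 with library totals, with NOISeq or without the fold minimum, and 1 to 2 when each sample was left out. These moves are Mfap2, Fbln2 and Ltbp2 crossing the fold minimum. The counts of members called at E14.5 and at E16.5 against E10.5 stayed within 1.5 times under every alternative run. Ltbp2 was not called at either stage against E10.5 with limma at a pseudocount of 1 (0.35 and 0.62) or with NOISeq (2.78 and 3.62).

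The count of partner genes called higher at E14.5 was 16, and it was 10 with limma at a pseudocount of 1, 10 with NOISeq and 26 without the fold minimum. The count called lower was 5, and it was 3 with limma at a pseudocount of 1, with or without the filter, and 3 with NOISeq. From E14.5 to E16.5, the count of 5 partners called higher became 2 with library totals, 2 with limma at a pseudocount of 1, with or without the filter, 3 with limma at 0.1, 2 with NOISeq and 13 without the fold minimum. Over all genes, 2014 called higher and 1177 lower at E14.5 became 941 and 535 with NOISeq, 1286 and 736 with limma at a pseudocount of 1 and 4273 and 4055 without the fold minimum. At E16.5 against E10.5, 2862 and 2282 became 5197 and 5119 without the fold minimum, and the count called higher became 1694 with NOISeq and 1856 with limma. From E14.5 to E16.5, 924 and 808 became 381 and 401 with NOISeq, 501 and 491 with limma, and 2579 and 2585 without the fold minimum. Without the filter on genes, limma called 1293 and 752 at E14.5 against E10.5, 1882 higher at E16.5 against E10.5, and 506 and 504 from E14.5 to E16.5. The causes were not tested.

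Direction turned for Fbn1 at E14.5 against E10.5 (0.01, but -0.014 with DESeq2, and -0.13 to 0.18 over samples left out). It turned for Eln at E14.5 against E10.5 without E14.5 sample S1 (-0.81 to 0.17 over samples left out), at E16.5 against E10.5 with limma (-0.063 at a pseudocount of 1, with or without the filter, and -0.075 at 0.1) and without E16.5 sample S2 (-0.22 to 0.48), and from E14.5 to E16.5 without E16.5 sample S2 (-0.025 to 0.98). The log2 ratio of Ltbp2 to Ltbp1 was higher by 0.73 at E14.5 and 1.24 at E16.5 than at E10.5, and lower (-0.66 and -0.30) once 0.1 FPKM was added, so no direction is given for it. Library totals shifted the median log2 fold change of all genes by -0.15 at E16.5 against E10.5 and by -0.16 against E14.5.

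With sample numbers as a replicate block, 5 members were called higher at E14.5 and 4 higher and 1 lower at E16.5 against E10.5, as without it, and Fbn1 at E14.5 was at -0.018. The Ltbp2 values rest on 9 to 109 reads per stage, which limits their precision.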
